A study of Mus musculus with 20 samples.

Results

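The genes described here are 7 matrix metalloproteinases, Mmp2, Mmp3, Mmp9, Mmp11, Mmp13, Mmp14 and Mmp15, and 3 tissue inhibitors of metalloproteinases, Timp1, Timp2 and Timp3. They were taken by symbol, as 10 of the 45706 gene identifiers in the count files, and no measured value entered the choice. RNA sequencing counts of PyMT mice, which develop breast cancer from a polyoma middle T oncogene under the MMTV promoter, were compared over 6 groups. Tumor tissue was taken at 18 weeks of age from 4 control mice with functional CTSD and from 4 MMTV-cre;Ctsd-/- mice, which lack the lysosomal protease cathepsin D in mammary epithelium, while their stroma keeps the gene. Tumor cells that had become immortal in culture without intervention came from 1 Ctsd+/+ and 1 MMTV-cre;Ctsd-/- animal and were kept at low serum. The short culture lasted 10 days and is called 1% FCS, the long one lasted 12 weeks and is called 1% FCS LT. Each pair of genotype and culture has 3 replicates. Each genotype of the cells is therefore a single line, line and genotype cannot be told apart, and p-values measure the spread between cultures of these lines. The LR numbers in the sample labels, whose meaning the labels do not give, differed between the tumor genotypes, so that these numbers and genotype cannot be told apart there.

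MMPs are zinc proteases that cut collagens, laminins, fibronectin and other matrix and cell surface proteins, and most are secreted as proenzymes that need the removal of a propeptide. TIMPs bind the active site of MMPs and block it, and Timp2 also takes part, together with the membrane-anchored protease encoded by Mmp14, in the activation of the gelatinase encoded by Mmp2. In mammary tumors many MMPs are made by stromal cells, and cancer cells make others.

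The total of counts on genes per library lay between 49725437 and 64291587 in the tumors and between 33622831 and 40239762 in the cells. Ctsd served as the check of the labels. In tumors it lay at 1860.0, 2617, 1781 and 2532 CPM (the reads of a gene relative to the library size, scaled with edgeR's TMM factors) in the controls and at 797, 360.2, 1295 and 1233 CPM in the Ctsd-/- group (log2 FC -1.25, SE 0.38, adjusted p = 0.463 by edgeR, no overlap). In 1% FCS it was 17.9-fold lower in Ctsd-/- cells (log2 FC -4.16, SE 0.37, adjusted p = 4.34e-06) and in 1% FCS LT 13.4-fold lower (log2 FC -3.74, SE 0.36, adjusted p = 1.24e-05). Adjusted p-values here and below come from the two-sided quasi-likelihood test of edgeR, adjusted after Benjamini and Hochberg across the genes of that fit. All 7 epithelial markers (Epcam, Cdh1, Krt8, Krt18, Krt19, Cldn7 and Esrp1) averaged above 1 CPM in every cell group, with the lowest sum in Ctsd+/+ cells in 1% FCS (957 to 1780.0 CPM) and between 4697 and 10570.0 CPM in the other cell samples. Control tumor 4 and Ctsd-/- tumor 1 held the most skeletal muscle marker RNA (866 and 226 CPM, against at most 61.4 CPM in the other tumors).

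Sequence upstream of the start site is shown for Mmp3, Mmp13 and their relative Mmp10, which lie in a run of Mmp genes on chromosome 9 and were higher in Ctsd-/- cells, and for Mmp14 and Timp3, which fell furthest. The sequences are RefSeq promoter windows of GRCm38.p6, on the plus strand, cut off before the start of the gene in RefSeq or GENCODE, whichever came first. The window of Timp3 was cut at the GENCODE start, so its 210 bases leave out those next to its RefSeq start. They lie at chr9:7445572-7445821 (Mmp3), chr9:7272264-7272513 (Mmp13), chr9:7502092-7502341 (Mmp10), chr14:54431348-54431597 (Mmp14) and chr10:86300162-86300371 (Timp3). Capitals mark matches of 3 motifs, searched on both strands. The AP-1 motif was TGANTCA. The core promoter motif known as the TATA box was searched as TATAAA. The GC box was searched as GGGCGG, and no marked matches overlap each other.
Mmp3: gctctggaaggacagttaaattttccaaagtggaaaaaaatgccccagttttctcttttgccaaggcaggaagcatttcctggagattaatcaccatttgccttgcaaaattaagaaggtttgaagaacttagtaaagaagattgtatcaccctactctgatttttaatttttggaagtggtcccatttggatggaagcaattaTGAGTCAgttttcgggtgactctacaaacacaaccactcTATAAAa
Mmp13: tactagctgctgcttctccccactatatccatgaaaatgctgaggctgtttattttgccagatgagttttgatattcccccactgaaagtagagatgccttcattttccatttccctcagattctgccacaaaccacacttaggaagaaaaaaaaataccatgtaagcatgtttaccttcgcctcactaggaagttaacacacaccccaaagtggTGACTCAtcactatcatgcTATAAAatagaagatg
Mmp10: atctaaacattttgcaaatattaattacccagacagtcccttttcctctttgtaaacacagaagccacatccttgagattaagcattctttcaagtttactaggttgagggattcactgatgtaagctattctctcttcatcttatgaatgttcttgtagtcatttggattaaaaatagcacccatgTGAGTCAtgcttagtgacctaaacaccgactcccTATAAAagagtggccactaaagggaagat
Mmp14: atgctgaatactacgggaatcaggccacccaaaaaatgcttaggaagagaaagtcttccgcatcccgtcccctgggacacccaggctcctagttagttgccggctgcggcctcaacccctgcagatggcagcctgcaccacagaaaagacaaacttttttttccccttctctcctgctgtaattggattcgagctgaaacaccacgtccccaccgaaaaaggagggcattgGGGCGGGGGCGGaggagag
Timp3: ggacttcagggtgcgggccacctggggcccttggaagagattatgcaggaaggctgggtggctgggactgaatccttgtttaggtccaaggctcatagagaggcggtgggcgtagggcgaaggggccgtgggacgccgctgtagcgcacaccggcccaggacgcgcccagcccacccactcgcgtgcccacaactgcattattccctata
The windows of Mmp3, Mmp13 and Mmp10 each held 1 AP-1 match and 1 TATA match and no GC box. The AP-1 match lay 40 to 46 bases before the start of Mmp3, 29 to 35 bases before that of Mmp13 and 57 to 63 bases before that of Mmp10. Among all 32851 RefSeq windows of the same length, 250 bases, 6.75% held an AP-1 match, 12.4% a TATA match and 32.7% a GC box. The window of Mmp14 held 2 GC boxes and neither of the other motifs, and the 210 bases of Timp3 held none of the 3. Of the other windows, those of Mmp15 and Timp1 held 1 GC box each, and those of Mmp11 and Timp2 begin inside the annotated gene and were not searched. Mmp2 and Mmp9 had no entry. A match is a string of letters, not a site shown to be bound.

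The members differed in where they were most abundant. Tumors and cells were normalized separately, so levels set side by side across the 2 materials are a description. Mmp2 lay between 21.9 and 182 CPM in tumors and between 0.135 and 1.22 CPM in cells, and Mmp15 between 30.95 and 99.9 CPM in tumors and between 4.03 and 27.2 CPM in cells. Both were therefore higher in every tumor than in any cell sample. Mmp3 and Mmp13 also had their highest group means in tumors, but there the ranges overlapped with those of Ctsd-/- cells in 1% FCS LT. Mmp9 peaked in Ctsd-/- cells in 1% FCS and Mmp11 in the Ctsd-/- cells of both cultures. Mmp14, Timp2 and Timp3 were highest in Ctsd+/+ cells, where Mmp14 averaged 454 ± 134 CPM (SD, n = 3) in 1% FCS and 595 ± 69.9 CPM in 1% FCS LT, with overlapping ranges.

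**Figure D1:**
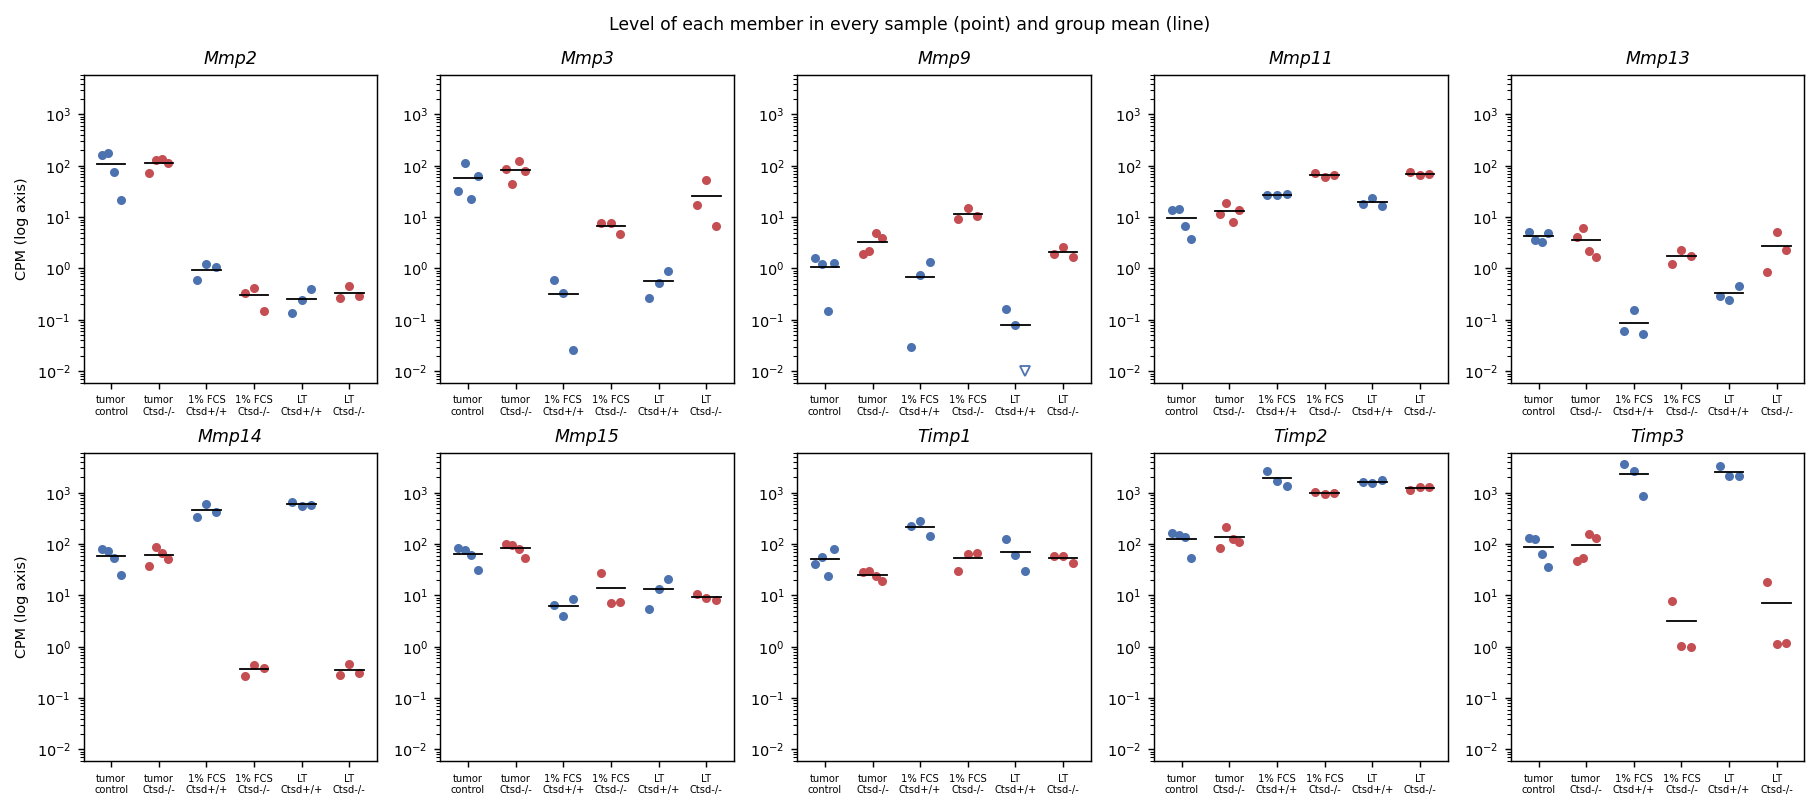
Level of the 10 genes in CPM (log axis) in each of the 20 samples, with blue points for controls or Ctsd+/+, red points for Ctsd-/-, and black lines for group means. The open triangle is a sample with 0 counts, drawn at 0.01. Mmp14 and Timp3 of Ctsd-/- cells lie far below those of Ctsd+/+ cells in both cultures, and Mmp3, Mmp9, Mmp11 and Mmp13 lie above them.

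The first comparison asks how cells without cathepsin D differ from competent cells after the short culture. In 1% FCS, 8 of the 10 members changed, 4 upwards and 4 downwards, against 25.0% of all 15178 genes tested (10.3% upwards and 14.6% downwards, at adjusted p below 0.05 and an absolute log2 FC above 1). Mmp9 and Mmp13, counted upwards here and in 1% FCS LT, passed the low-count filter only through the Ctsd-/- samples, so these counts are a description and not support. The secreted proteases encoded by Mmp3, Mmp9, Mmp11 and Mmp13 rose, while Mmp14, Mmp2, Timp1 and Timp3 fell. The groups did not overlap for 9 of the 10 members, and for 55.2% of all genes.

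Mmp14, which encodes the membrane-type collagenase MT1-MMP, read 340.5, 602 and 419 CPM in the Ctsd+/+ replicates 1, 2 and 3 and 0.268, 0.438 and 0.384 CPM in the Ctsd-/- replicates. Between 11 and 16 reads per library were left of it in Ctsd-/- cells. The fitted difference was 1249-fold (log2 FC -10.29, SE 0.31, adjusted p = 1.62e-09), the 78th largest decrease among the genes tested. Mmp14 was far lower in Ctsd-/- cells in 1% FCS LT as well. There it lay at 674, 541 and 570.1 CPM in Ctsd+/+ cells and at 0.287, 0.464 and 0.315 CPM in Ctsd-/- cells (1668-fold, log2 FC -10.70, SE 0.31, adjusted p = 2.06e-09). This was the 20th largest decrease in that comparison. With the samples of LR number LR-38862 alone, the log2 FC of Mmp14 was -10.26 and -10.66 in the 2 cultures.

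Timp3 encodes the inhibitor that stays bound to the extracellular matrix. It read 3631, 2616 and 871 CPM in Ctsd+/+ cells in 1% FCS and 7.67, 1.04 and 0.976 CPM in Ctsd-/- cells. After 12 weeks it read 3312, 2167 and 2107 CPM against 18.6, 1.16 and 1.21 CPM. Replicate 1 stood above replicates 2 and 3 in both Ctsd-/- groups, and was still far below the lowest Ctsd+/+ sample of its culture. The fitted decrease was 723-fold in 1% FCS (log2 FC -9.50, SE 1.38, adjusted p = 0.000166) and 360.2-fold in 1% FCS LT (log2 FC -8.49, SE 1.32, adjusted p = 0.000368). Without Ctsd-/- replicate 1 the log2 FC of Timp3 was -11.19 in 1% FCS and -11.05 in 1% FCS LT, and over all single libraries left out it ranged from -11.19 to -9.05 and from -11.05 to -7.99. Timp3 shares up to 1733 bases of exon with Syn3 on the other strand, and the cell counts used are strand-specific.

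Timp1 and Timp2 encode soluble inhibitors. Timp1 lay at 229, 282 and 144 CPM in Ctsd+/+ cells in 1% FCS and at 29.8, 64.0 and 67.0 CPM in Ctsd-/- cells, a 4.08-fold decrease (log2 FC -2.03, SE 0.46, adjusted p = 0.00345) with no overlap. In 1% FCS LT the groups overlapped, with 125, 60.2 and 30.3 CPM against 58.2, 58.6 and 43.0 CPM (log2 FC -0.43, SE 0.45, adjusted p = 0.476). Timp2 was the most abundant of the 3 inhibitors in Ctsd-/- cells. It read 2684, 1719 and 1327 CPM against 1026, 932 and 1005 CPM in 1% FCS, where its adjusted p was 0.00262 and its log2 FC of -0.95 (SE 0.21) missed the fold threshold. In 1% FCS LT Timp2 of Ctsd-/- cells (1130.0 to 1300.0 CPM) again lay below that of Ctsd+/+ cells (1574 to 1737 CPM) in every sample, with a log2 FC of -0.41 (SE 0.21, adjusted p = 0.134) that did not pass the test.

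Mmp3 encodes stromelysin-1, which cuts many matrix proteins and activates other pro-MMPs. It lay at 0.600, 0.336 and 0.0262 CPM in Ctsd+/+ cells and at 7.57, 7.67 and 4.79 CPM in Ctsd-/- cells in 1% FCS (21.1-fold, log2 FC 4.40, SE 0.85, adjusted p = 0.00125). After 12 weeks it lay at 0.270, 0.533 and 0.887 CPM against 17.6, 51.9 and 6.72 CPM (44.65-fold, log2 FC 5.48, SE 0.83, adjusted p = 0.0003195). No sample of one genotype reached the range of the other. The log2 FC of Mmp3 in 1% FCS was 5.25 without Ctsd+/+ replicate 1 and 3.80 without Ctsd+/+ replicate 3, and in 1% FCS LT it was 4.43 without Ctsd-/- replicate 2.

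Mmp13 encodes collagenase-3, and Mmp9 the gelatinase B that cuts denatured collagen and collagen IV. Mmp13 rose from 0.0600, 0.153 and 0.0523 CPM to 1.24, 2.30 and 1.72 CPM in 1% FCS (19.4-fold, log2 FC 4.28, SE 0.72, adjusted p = 0.000461) and from 0.297, 0.240 and 0.456 CPM to 0.862, 5.25 and 2.30 CPM in 1% FCS LT (8.36-fold, log2 FC 3.06, SE 0.60, adjusted p = 0.0018). Mmp9 rose from 0.0300, 0.733 and 1.31 CPM to 9.32, 14.95 and 10.6 CPM in 1% FCS (16.6-fold, log2 FC 4.05, SE 0.74, adjusted p = 0.000826). In 1% FCS LT Mmp9 was nearly absent from Ctsd+/+ cells, with 0.162, 0.0799 and 0 CPM, and lay at 1.94, 2.63 and 1.69 CPM in Ctsd-/- cells (25.3-fold, log2 FC 4.66, SE 0.91, adjusted p = 0.00176). Leaving out 1 library changed the fold of Mmp9 by over 1.5 times, with a log2 FC of 4.90 in 1% FCS (without Ctsd+/+ replicate 3) and of 5.62 and 4.07 in 1% FCS LT (without Ctsd+/+ replicate 1 or 3). That of Mmp13 moved to 4.89 in 1% FCS (without Ctsd+/+ replicate 2) and to 2.25 in 1% FCS LT (without Ctsd-/- replicate 2).

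Mmp11 encodes stromelysin-3, which leaves its cell as an active enzyme after furin cleavage. Its differences were smaller than those of Mmp3, Mmp9 and Mmp13, and their SEs were the smallest among the members. It read 27.3, 27.5 and 27.7 CPM in Ctsd+/+ and 72.3, 61.0 and 67.1 CPM in Ctsd-/- cells in 1% FCS (2.43-fold, log2 FC 1.28, SE 0.13, adjusted p = 1.2e-05). After 12 weeks it read 18.0, 23.8 and 16.6 CPM against 74.8, 65.4 and 69.3 CPM (3.585-fold, log2 FC 1.84, SE 0.13, adjusted p = 1.69e-06). Mmp11 thus ranged from 61.0 to 74.8 CPM in Ctsd-/- cells and from 16.6 to 27.7 CPM in Ctsd+/+ cells.

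Mmp2 encodes gelatinase A and Mmp15 a membrane-type MMP. Mmp2 was scarce in cells, with 5 to 40 reads per library. It fell from 0.600, 1.22 and 1.05 CPM to 0.341, 0.411 and 0.148 CPM in 1% FCS (log2 FC -1.65, SE 0.47, adjusted p = 0.0126), and without Ctsd-/- replicate 3 its adjusted p was 0.0539 (log2 FC -1.34). When reads of both strands were counted, Mmp2 had a log2 FC of 0.18 in this comparison. After 12 weeks its groups overlapped (log2 FC 0.37, SE 0.50, adjusted p = 0.595). Mmp15 lay between 4.03 and 8.51 CPM in Ctsd+/+ and between 6.98 and 27.2 CPM in Ctsd-/- cells in 1% FCS, with overlapping groups (log2 FC 1.13, SE 0.56, adjusted p = 0.113), and overlapped in 1% FCS LT as well (log2 FC -0.53, SE 0.55, adjusted p = 0.478).

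In the 1% FCS LT comparison, then, 6 of the 10 members changed, Mmp3, Mmp9, Mmp11 and Mmp13 upwards and Mmp14 and Timp3 downwards, against 19.4% of all genes tested (9.24% upwards and 10.1% downwards). Groups did not overlap for 7 of the 10, against 54.2% of all genes. The median log2 FC over the 10 members was 0.09 in 1% FCS and -0.02 in 1% FCS LT, beside 0.00 and 0.01 over all genes, since increases and decreases offset each other.

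**Figure D2:**
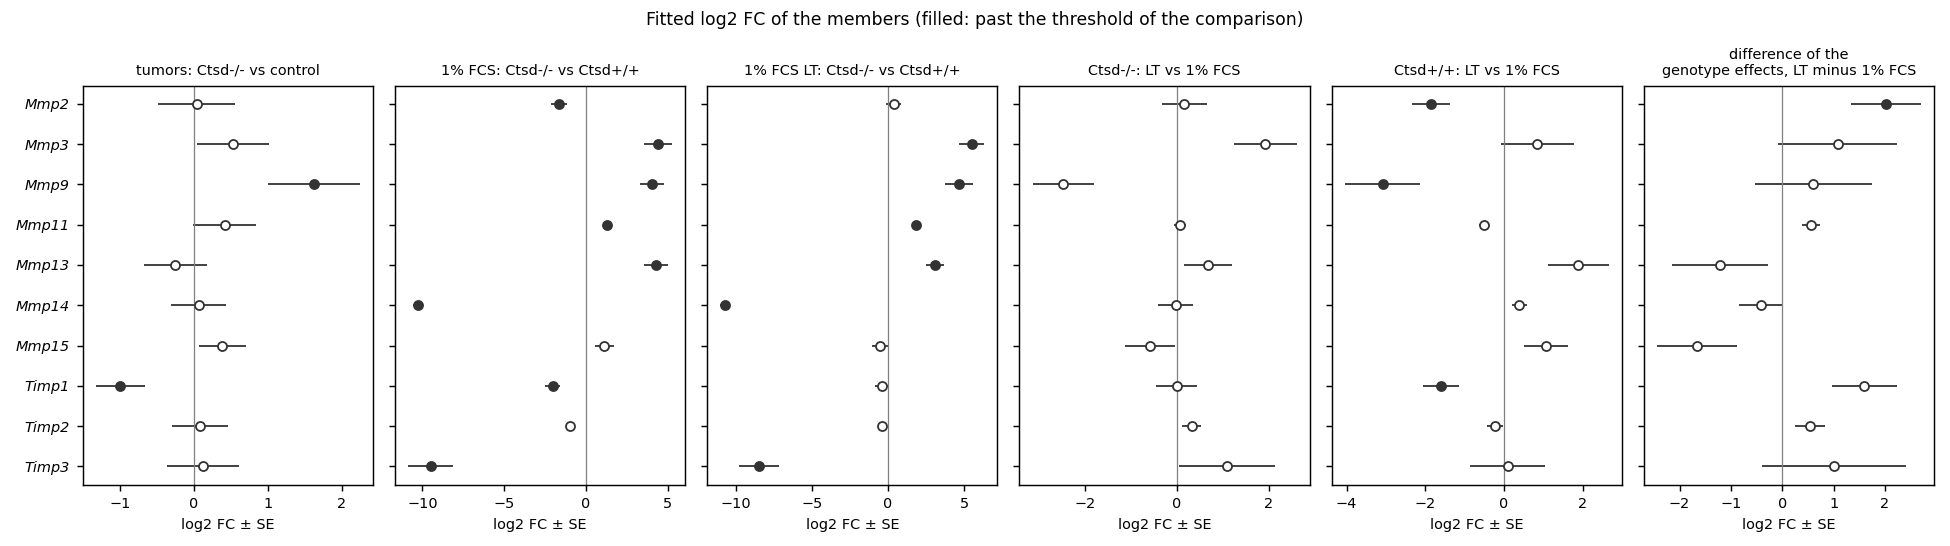
Fitted log2 FC of the 10 members with 1 SE to each side in 6 comparisons, each panel with its own x axis. Filled points passed the threshold of their comparison (p below 0.1 without adjustment in tumors, adjusted p below 0.05 and an absolute log2 FC above 1 in cells). Mmp14 and Timp3 have log2 FC values of -8.49 or lower in both genotype comparisons of cells, and between -0.03 and 1.10 in the other panels except -0.42 for Mmp14 in the last one.

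Markers of other cell types were read beside these results. The fibroblast markers Thy1 and Dpt had no read in any cell sample. The sum of the 7 fibroblast markers nevertheless reached 171 to 722 CPM in Ctsd+/+ cells in 1% FCS, most of it Pdgfrb (552, 694 and 159.7 CPM), and stayed between 3.67 and 5.69 CPM in the matched Ctsd-/- cells. In 1% FCS LT the sum was 1.86 to 4.41 CPM in Ctsd+/+ and 7.50 to 95.6 CPM in Ctsd-/- cells, with Pdgfrb at 84.9 CPM in Ctsd-/- replicate 1. The levels of Mmp14 and Timp3 in long-term Ctsd+/+ cells, where these markers were low, overlapped with those in the short-term ones. Neutrophil markers, which can accompany Mmp9, summed to between 1.92 and 2.56 CPM in Ctsd-/- and at most 0.36 CPM in Ctsd+/+ cells in 1% FCS, and to between 3.18 and 5.15 CPM against at most 1.20 CPM in 1% FCS LT. Of the 6 markers, 2 (Ly6g and S100a8) were tested in cells, and both were called higher in Ctsd-/- cells of both cultures. Both reached the low-count filter only through Ctsd-/- samples, so this count is a description. S100a9 and Cxcr2 were not tested. In 1% FCS LT they had 10 and 15 reads in Ctsd+/+ cells, against 4 and 5 in Ctsd-/- cells. In 1% FCS they had 0 and 0 reads against 2 and 7. Ly6g had a log2 FC of 6.33 in 1% FCS and 4.15 in 1% FCS LT, and S100a8 of 3.21 and 2.95. Csf3r had no read in Ctsd-/- cells in 1% FCS LT, and Retnlg none in any cell group. The sum of 7 basal and myoepithelial markers was 46.6 to 102.4 CPM in Ctsd+/+ and 6.30 to 9.13 CPM in Ctsd-/- cells in 1% FCS, and 20.2 to 77.4 CPM against 4.33 to 6.63 CPM in 1% FCS LT, so that it was lower where Mmp14 and Timp3 were lower. Krt14 among them was lower in Ctsd-/- cells of both cultures (log2 FC -2.50 and -3.78, both called), while Krt5 was higher in 1% FCS (log2 FC 2.53, called). The macrophage sum was 6.51 to 14.3 CPM against 11.4 to 27.3 CPM in 1% FCS, and 54.9 to 63.9 CPM in Ctsd+/+ against 8.91 to 25.2 CPM in Ctsd-/- cells in 1% FCS LT, where Csf1r was lower (log2 FC -3.42, called). Cd68, the other macrophage marker tested, went the other way and was higher in Ctsd-/- cells of both cultures (log2 FC 2.12 and 1.54, both called). The part of these cell types in the results was not tested.

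Summed over the 7 MMPs and scaled for exon length, levels were 87.9 ± 22.4 CPM per kb (SD, n = 3) in Ctsd+/+ and 34.4 ± 3.57 CPM per kb in Ctsd-/- cells in 1% FCS, and 109.8 ± 9.79 and 42.8 ± 12.9 CPM per kb in 1% FCS LT. Mmp14 made up 83.2% to 89.8% of this MMP sum in Ctsd+/+ cells in 1% FCS and 88.7% to 93.5% in 1% FCS LT. In Ctsd-/- cells it made up at most 0.224%, and Mmp11 took the largest average share, at 67.0% to 75.6% in 1% FCS and 41.3% to 78.8% in 1% FCS LT. The 3 TIMPs summed to 1028 ± 394 CPM per kb in Ctsd+/+ and 314 ± 18.0 CPM per kb in Ctsd-/- cells in 1% FCS, and to 813 ± 129 and 378 ± 18.0 CPM per kb in 1% FCS LT. Timp3 held 17.5% to 42.3% of the TIMP sum in Ctsd+/+ cells and at most 0.639% in Ctsd-/- cells, where Timp2 held 76.8% to 88.4%. The ratio of the TIMP to the MMP sum overlapped between genotypes in both cultures (12.4 ± 6.89 against 9.22 ± 1.37 in 1% FCS, 7.37 ± 0.525 against 9.33 ± 2.60 in 1% FCS LT). These sums count RNA and say nothing of protein or activity.

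**Figure D3:**
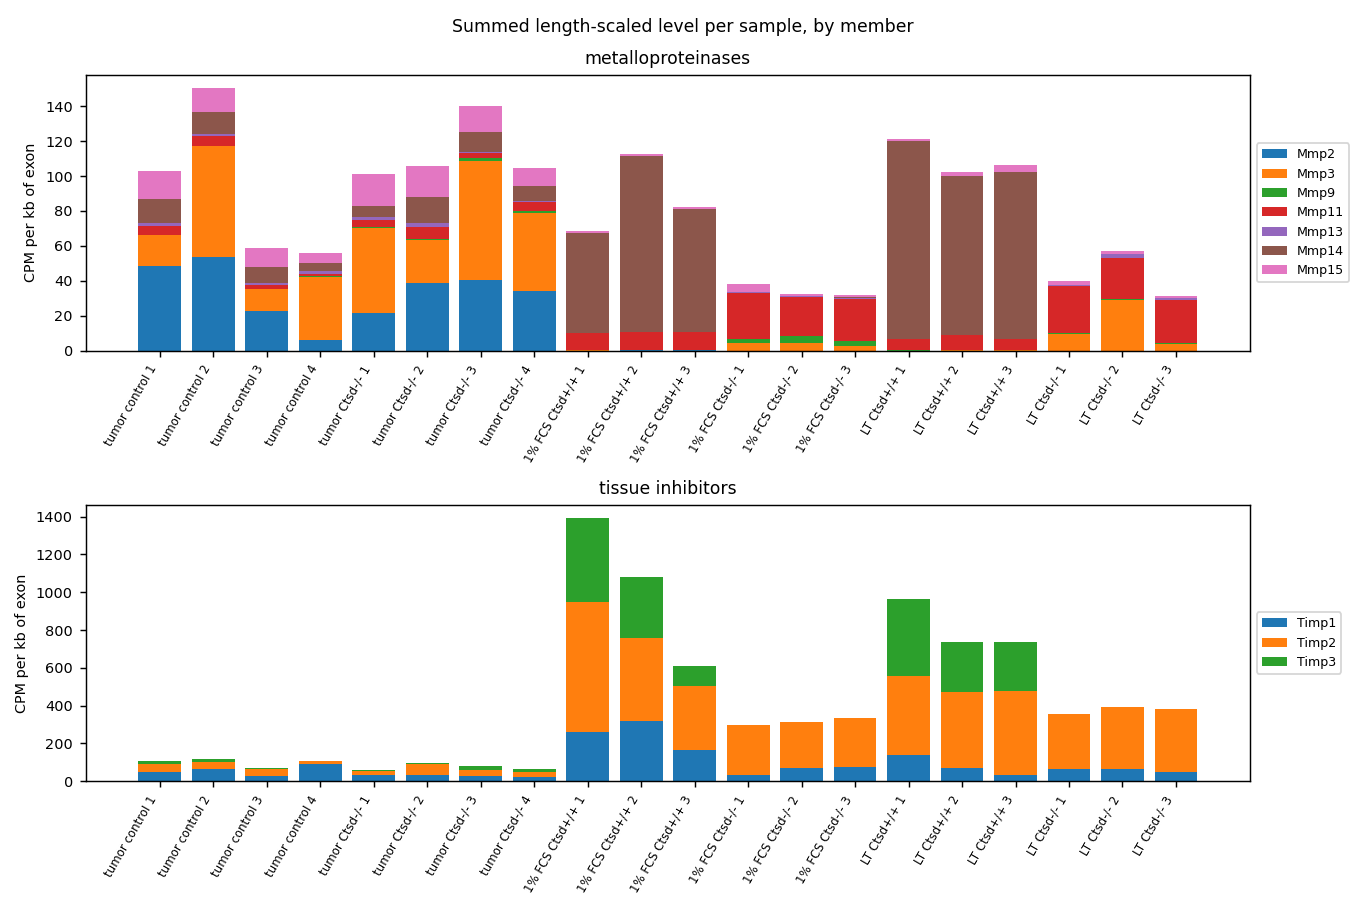
Stacked bars of the level of each MMP (top) and TIMP (bottom) in CPM per kb of exon in each sample, on linear axes that start at 0. Mmp14 fills most of the MMP bar in Ctsd+/+ cells and is not visible in Ctsd-/- cells, where Mmp11 leads, and Timp3 is too small to be seen in the TIMP bars of Ctsd-/- cells (at most 0.639% of the sum). Tumors and cells were normalized separately.

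The next comparisons ask what 12 weeks in low serum changed within a genotype. Within Ctsd+/+ cells, 3 of the 10 members fell and none rose, against 23.4% of all genes tested (11.0% upwards and 12.3% downwards). Groups did not overlap for 4 members, Mmp2, Mmp11, Mmp13 and Timp1, against 53.7% of all genes. Mmp2 fell 3.63-fold (log2 FC -1.86, SE 0.48, adjusted p = 0.00746) and Timp1 3.05-fold (log2 FC -1.61, SE 0.45, adjusted p = 0.0124), both without overlap. Without 1% FCS LT replicate 1 the log2 FC of Timp1 was -2.27 and that of Mmp9 -4.05. Mmp9 fell 8.49-fold (log2 FC -3.09, SE 0.96, adjusted p = 0.0199), but its ranges overlapped because replicate 1 in 1% FCS had a single read. The call of Mmp9 was lost without 1% FCS replicate 3 (adjusted p = 0.0988), without 1% FCS LT replicate 2 (0.0586), without 1% FCS LT replicate 3 (0.0618) and with limma-voom (0.143). Mmp11 missed the fold threshold at -0.50 (SE 0.13, adjusted p = 0.00814). The other members, none of them called, had log2 FC values of 0.85 (Mmp3), 1.89 (Mmp13), 0.39 (Mmp14), 1.07 (Mmp15), -0.22 (Timp2) and 0.09 (Timp3), and Ctsd had -0.68.

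Within Ctsd-/- cells, 0 of the 10 members passed the thresholds in edgeR, against 1.48% of all genes (1.11% upwards and 0.369% downwards). Mmp9 and Mmp3 had an unadjusted edgeR p below 0.05 (adjusted p = 0.0787 and 0.166), and 1 member passed with DESeq2 or limma-voom. Groups did not overlap for 2 members, Mmp9 and Timp2, against 25.4% of all genes. Mmp9 lay at 9.32, 14.95 and 10.6 CPM in 1% FCS and at 1.94, 2.63 and 1.69 CPM in 1% FCS LT, with no overlap between the groups and a log2 FC of -2.48 (SE 0.67). DESeq2 (adjusted p = 0.00913), limma-voom (0.0349), the fit without a low-count filter (0.00938), the fit of these groups alone (0.0082) and the samples of LR-38862 alone (0.0115) each passed Mmp9. Mmp3 had a log2 FC of 1.93 (SE 0.68) with overlapping groups. Timp3 had a log2 FC of 1.10 (SE 1.04), which was -1.47 without 1% FCS LT replicate 1. The remaining values were 0.16 (Mmp2), 0.06 (Mmp11), 0.68 (Mmp13), -0.03 (Mmp14), -0.58 (Mmp15), -0.0088 (Timp1), 0.32 (Timp2) and -0.26 (Ctsd).

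A last cell comparison asks whether the genotype difference itself changed with culture time, as the log2 FC between genotypes after 12 weeks less that after 10 days. 1 of the 10 members passed, Mmp2, with a log2 FC of 2.02 (SE 0.69, adjusted p = 0.0439), against 19.1% of all genes tested (11.0% upwards and 8.12% downwards). The Mmp2 call was lost with DESeq2 (adjusted p = 0.0501), without the low-count filter (0.0556), with reads of both strands (0.373) and in 9 of the 12 fits that left out a sample. Timp1 reached 1.60 (SE 0.63, adjusted p = 0.0778), and passed with DESeq2 (adjusted p = 0.0289), limma-voom (0.0467) and without the low-count filter (0.0223). Mmp11 had an adjusted p of 0.0365 with a log2 FC of 0.56 (SE 0.18), below the fold threshold. Mmp15 (-1.66, SE 0.78), Timp2 (0.54, SE 0.29) and Ctsd (0.42, SE 0.46) did not pass. For Mmp3 (1.08, SE 1.16), Mmp9 (0.61, SE 1.13), Mmp13 (-1.22, SE 0.94), Mmp14 (-0.42, SE 0.43) and Timp3 (1.005, SE 1.41), whose genotype differences passed in both cultures, no change of the difference passed the test, which does not show that it stayed the same.

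In tumors the question is what the loss of CTSD in mammary epithelium changes in tissue that also holds stroma, where fewer cells of a type and less RNA per cell cannot be told apart. At the threshold of p below 0.1 without adjustment, Mmp9 was higher and Timp1 lower in Ctsd-/- tumors, 2 of the 10 members, against 16.7% of the 18617 genes tested (8.44% upwards and 8.27% downwards), so that the share is near that of all genes. By edgeR 0 of the 10 members passed an adjusted p of 0.05, and 1 gene of all did (0.00537%). Mmp9 and Timp1 were the members with an unadjusted edgeR p below 0.05.

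Mmp9 lay at 1.57, 1.20, 0.149 and 1.29 CPM in control tumors 1 to 4 and at 1.96, 2.18, 4.99 and 3.88 CPM in Ctsd-/- tumors. The groups did not overlap, which held for 4.15% of all genes (3.09-fold, log2 FC 1.63, SE 0.62, adjusted p = 0.544 by edgeR). Timp1 lay at 41.9, 56.7, 24.0 and 80.5 CPM in controls and at 28.2, 30.1, 24.4 and 19.1 CPM in Ctsd-/- tumors. Only control tumor 3 fell into the Ctsd-/- range (1.99-fold lower, log2 FC -0.996, SE 0.33, adjusted p = 0.513 by edgeR).

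The other 8 members overlapped between the tumor groups, with log2 FC values from -0.26 (Mmp13, SE 0.43) to 0.53 (Mmp3, SE 0.48). Mmp2 spread from 21.9 CPM in control tumor 4 to 182 CPM in control tumor 2, a wider range than the 73.2 to 137 CPM of the Ctsd-/- tumors. Mmp14 read 25.0 to 81.3 CPM in controls and 36.8 to 88.3 CPM in Ctsd-/- tumors (log2 FC 0.06, SE 0.37), and Timp3 35.4 to 132 CPM against 47.9 to 159 CPM (log2 FC 0.12, SE 0.49). The log2 FC was 0.04 for Mmp2, 0.42 for Mmp11, 0.38 for Mmp15 and 0.08 for Timp2. Mmp14 and Timp3, nearly silent in the Ctsd-/- cell line, were thus present in every Ctsd-/- tumor. Mmp2, Mmp11, Mmp14, Mmp15, Timp2 and Timp3 were each lowest in control tumor 4 among the controls. Among the tumors, that library had the fewest counts on genes (49725437) and the lowest TMM factor (0.793). It also had the largest share of reads that overlap several genes (15.57%). Whether this bears on the low values was not tested. The tumor counts do not use strand, and reads that overlap Syn3 or Chchd10 exons are not part of the counts of Timp3 and Mmp11. The per-kb TIMP to MMP ratio ranged from 0.786 to 1.95 in controls and from 0.568 to 0.914 in Ctsd-/- tumors, with overlap.

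All 6 adipocyte markers (Adipoq, Plin1, Plin4, Cidec, Fabp4 and Lep) and 4 of 5 endothelial markers passed the tumor threshold upwards. The adipocyte sum was 292, 928, 218 and 2172 CPM in control tumors 1 to 4 and 2852, 1089, 6750.0 and 11300.0 CPM in the Ctsd-/- tumors. Ctsd-/- tumors 3 and 4, the highest in Mmp9, were also the highest in this sum and in the endothelial sum (234 and 224 CPM, against 45.0 to 94.4 CPM in the other tumors). With the mean log2 CPM of the adipocyte markers as a covariate, Mmp9 had a log2 FC of 0.45 (adjusted p = 0.970 by edgeR) and lost its call, and Timp1 kept its call with a log2 FC of -1.20. The covariate was itself higher in most Ctsd-/- tumors, so this fit cannot tell its part from that of genotype. Neutrophil markers summed to 16.5 to 76.1 CPM in controls and 22.9 to 25.6 CPM in Ctsd-/- tumors. Without the 2 tumors richest in muscle markers, an alternative chosen after the data were seen, Mmp9 (log2 FC 1.93) and Timp1 (log2 FC -0.74) were again the 2 members past the threshold. What part these cell types have in the values of Mmp9 and Timp1 was not tested further.

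Other genes of the family were read from a list of 17. In tumors 11 of them were tested and 4 passed upwards (8.44% of all genes did), Mmp19, Mmp25, Mmp28 and Timp4, of which only Mmp25 did not overlap (1.05, 1.03, 1.26 and 0.152 CPM in controls, 1.46, 2.60, 3.25 and 5.89 CPM in Ctsd-/- tumors, log2 FC 1.90, SE 0.62, adjusted p = 0.495 by edgeR). Mmp25 encodes a membrane-anchored MMP known from leukocytes. In cells 10 were tested. In 1% FCS 5 rose and 3 fell, and in 1% FCS LT 4 rose and 2 fell, against 25.0% and 19.4% of all genes called in either direction. Of those that rose, Mmp1a and Mmp1b passed the low-count filter only through Ctsd-/- samples. Of those that fell, Mmp16 and Mmp17 passed it only through Ctsd+/+ samples, so the counts in both directions are a description. The median log2 FC over the 10 was 0.75 and 0.80, beside 0.00 and 0.01 over all genes.

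Like Mmp3, Mmp10, which encodes stromelysin-2, was higher in Ctsd-/- cells of both cultures. It lay at 0.0600, 0.733 and 0.550 CPM in Ctsd+/+ and at 11.6, 17.8 and 16.8 CPM in Ctsd-/- cells in 1% FCS (34.0-fold, log2 FC 5.09, SE 0.64, adjusted p = 5.77e-05), and was 18.2-fold higher in 1% FCS LT (log2 FC 4.18, SE 0.60, adjusted p = 0.000206). Mmp16, a membrane-type MMP like Mmp14, lay at 51.9, 52.4 and 35.9 CPM in Ctsd+/+ cells in 1% FCS and was covered by 2 reads in all 3 Ctsd-/- libraries together, a ratio of 2574 (exact 95% interval for counting error 712 to 21260.0). After 12 weeks 923 reads of Mmp16 in Ctsd+/+ cells stood against 1 in Ctsd-/- cells, a ratio of 987 (interval 177 to 39040.0). Mmp1a had 27 reads in Ctsd-/- cells and 0 in Ctsd+/+ cells in 1% FCS, at least 2.90-fold higher when set against the level of 3 reads per library.

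Mmp13, Mmp3 and Mmp10 lie on chromosome 9 in a run of 10 Mmp genes that spans 427072 bases of GRCm38 (GENCODE M21), from Mmp13 at position 7272514 to the end of Mmp7 at 7699585. Mmp3 lies at chr9:7445822-7455975 and Mmp10 at chr9:7502352-7510240, with Mmp1a, annotated as a polymorphic pseudogene, between them. Of these 10 genes, 5 passed the low-count filter in cells (Mmp13, Mmp1b, Mmp3, Mmp1a and Mmp10). All 5 were higher in Ctsd-/- cells in 1% FCS, and all but Mmp1b (log2 FC 1.80) were also called higher in 1% FCS LT. Mmp13, Mmp1a and Mmp1b passed the filter only because of the Ctsd-/- samples, so the count of 5 is a description. The other 5 (Mmp12, Mmp8, Mmp27, Mmp20 and Mmp7) reached at most 0.570 CPM in any cell sample. The remaining members lie elsewhere, Mmp2 and Mmp15 on chromosome 8, Mmp9 on 2, Mmp11 and Timp3 on 10, Mmp14 on 14, Timp2 on 11 and Timp1 on X.

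Time in culture changed other family genes within Ctsd+/+ cells. Mmp19 fell 11.0-fold (log2 FC -3.46, SE 0.79, adjusted p = 0.0037) and Mmp16 5.74-fold (log2 FC -2.52, SE 0.29, adjusted p = 3.04e-05), while Mmp24, another membrane-type MMP, rose 5.45-fold (log2 FC 2.45, SE 0.32, adjusted p = 7.89e-05). Mmp19 of Ctsd-/- cells was 21.4-fold above that of Ctsd+/+ cells in 1% FCS LT (log2 FC 4.42, SE 0.80, adjusted p = 0.00106).

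**Figure D4:**
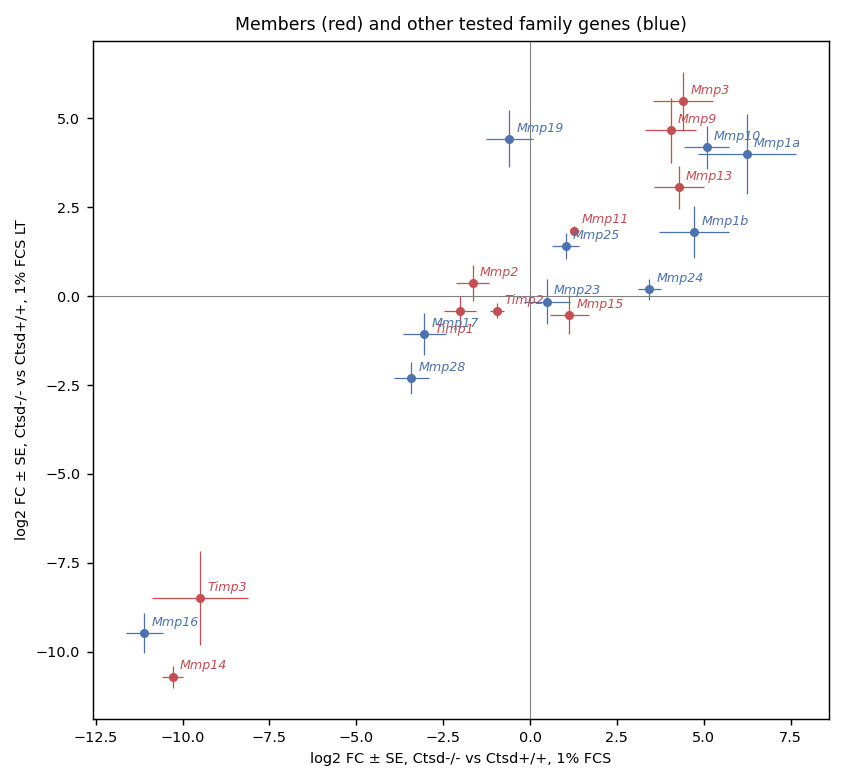
Fitted log2 FC of Ctsd-/- against Ctsd+/+ cells in 1% FCS (x axis) and 1% FCS LT (y axis), with 1 SE on each axis, for the 10 members (red) and the 10 other family genes tested (blue). Mmp14, Mmp16 and Timp3 sit together at the lower left, and Mmp3, Mmp9, Mmp10, Mmp13 and Mmp1a at the upper right. The fitted values of Mmp16 and Mmp1a rest on groups with 0 to 2 reads.

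Of 9 genes that activate MMPs or act on them at the cell surface, 2 rose and 3 fell in Ctsd-/- cells in 1% FCS (25.0% of all genes changed), and 1 rose and 1 fell in 1% FCS LT (19.4% of all genes). Reck, which encodes a membrane-anchored MMP inhibitor, was 8.96-fold lower (log2 FC -3.16, SE 0.45, adjusted p = 0.000148), and had a log2 FC of -0.04 in 1% FCS LT (SE 0.42, adjusted p = 0.955). The proprotein convertase gene Pcsk5 was 11.6-fold lower in 1% FCS (log2 FC -3.54, SE 0.87, adjusted p = 0.00553) and did not pass in 1% FCS LT (log2 FC -1.48, SE 0.76, adjusted p = 0.143). Pcsk5 was scarce, with 86 reads in all Ctsd+/+ libraries of 1% FCS together and 8 in the Ctsd-/- libraries. Its log2 FC in 1% FCS ranged from -5.60 to -2.93 under the alternatives. Lrp1, which encodes an endocytic receptor that clears MMPs and TIMPs, was 4.22-fold lower in 1% FCS (log2 FC -2.08, SE 0.29, adjusted p = 0.000109) and 10.7-fold higher in 1% FCS LT (log2 FC 3.41, SE 0.30, adjusted p = 6.48e-06). In Ctsd+/+ cells Lrp1 fell 25.5-fold with time in culture (log2 FC -4.67, SE 0.32, adjusted p = 7.9e-07). Pcsk6, another convertase gene, was higher in Ctsd-/- cells in 1% FCS (log2 FC 1.16, SE 0.39, adjusted p = 0.0268) and 4.54-fold lower in Ctsd-/- cells in 1% FCS LT (log2 FC -2.18, SE 0.39, adjusted p = 0.000993).

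Genes of MMP substrates were called in larger numbers. Of 16, 13 fell and 2 rose in Ctsd-/- cells in 1% FCS (14.6% and 10.3% of all genes), with a median log2 FC of -5.11, and 6 fell and 3 rose in 1% FCS LT (10.1% and 9.24% of all genes), with a median of -0.88. Some of those that fell, among them Col3a1, Col4a1 and Col4a2, passed the low-count filter only through Ctsd+/+ samples. The counts of this list in cells are therefore a description. Col4a1, a basement membrane collagen chain, lay at 2930.0, 5678 and 4083 CPM in Ctsd+/+ and at 0.0973, 0.0274 and 0.0887 CPM in Ctsd-/- cells in 1% FCS (log2 FC -15.78, SE 0.41, adjusted p = 6.67e-10), and fell in 1% FCS LT too (log2 FC -11.48, SE 0.37, adjusted p = 3.68e-09). Col4a2, the partner chain, showed a log2 FC of -14.81 (SE 0.47, adjusted p = 2.62e-09) and -11.11 (SE 0.41, adjusted p = 1.31e-08). In tumors 2 of 16 passed, Nid1 (log2 FC 1.18) and Hspg2 (log2 FC 1.25), a smaller share than the 16.7% of all genes. Within Ctsd+/+ cells, 9 of the 16 fell and 2 rose with time in culture (12.3% and 11.0% of all genes), and Col5a1 fell furthest (log2 FC -11.67, SE 1.19, adjusted p = 1.31e-05).

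Of 17 genes for transcription factors known to act at MMP promoters, 2 rose and 2 fell in Ctsd-/- cells in 1% FCS, and 3 rose and 1 fell in 1% FCS LT. These shares are near those of all genes (25.0% and 19.4%), so the list as a whole does not stand out, and the values of single factors are a description. Among the AP-1 subunits, Fos was lower in Ctsd-/- cells of both cultures (log2 FC -2.16, SE 0.44, adjusted p = 0.0018 and log2 FC -2.15, SE 0.45, adjusted p = 0.0026). Fosb was higher in both (log2 FC 1.41, SE 0.40, adjusted p = 0.0115 and log2 FC 1.75, SE 0.40, adjusted p = 0.00476). Etv1, of the ETS family, was 13.7-fold higher in 1% FCS LT (log2 FC 3.77, SE 0.26, adjusted p = 1.29e-06) and was the factor that rose with time within Ctsd-/- cells (log2 FC 1.26, SE 0.23, adjusted p = 0.0201). Jun fell 6.07-fold with time in Ctsd+/+ cells (log2 FC -2.60, SE 0.37, adjusted p = 0.000142).

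Over the 12 cell samples, the protein-coding gene outside the MMP and TIMP families whose log2 CPM was most like that of a member, by Pearson's r among 10716 genes, was Trim35 for Mmp14 (r = 0.994), Itgb8 for Timp3 (0.991), Zcwpw1 for Mmp11 (0.984), Snrpb2 for Mmp9 (0.970), Tmem185a for Timp2 (0.9665), Mfsd8 for Mmp13 (0.964), Gm45837 for Mmp3 (0.953), Cers5 for Timp1 (0.942), Rab12 for Mmp2 (0.916) and Mdm4 for Mmp15 (0.8845). The samples come from 2 lines in 2 cultures, so such a value can reflect how both genes differ between these groups, which was not tested.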

How the data were processed

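Gene counts of 8 tumors and 12 cell samples were used. The authors trimmed reads with Trimmomatic, aligned them to GRCm38/mm10 with STAR and deposited its raw gene counts, both without regard to strand and for each strand, and their labels name STAR and mm10. Versions and the annotation release are not given in the sources used here. Reads that map to several places or overlap several genes are left out of these counts. Counts without regard to strand were used for tumors, in which 52.8% to 53.7% of strand-assigned reads lay on the opposite strand, and opposite-strand counts for cells (97.1% to 97.3%). Symbols came from GENCODE M21, in which 45143 of 45706 identifiers were found.

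In R 4.3.3, genes were filtered with filterByExpr, scaled with TMM and tested with glmQLFTest of edgeR 4.0.16, tumors and cells apart and the 4 cell groups in a single fit. Calls required p below 0.1 without adjustment in tumors, as in the study, and an adjusted p below 0.05 with an absolute log2 FC above 1 in cells. SEs follow from the F statistic. CPM per kb uses the exon union. edgeR put the biological coefficient of variation at 0.429 (tumors) and 0.217 (cells). Data were also simulated with the same coefficient of variation for all genes of a design. There a gene counted as recovered at an adjusted p below 0.05 without a fold threshold. By that rule, which is not that of the calls above, edgeR recovered 5% of genes changed 2-fold and 70% of those changed 4-fold in the tumor design (18779 genes). In the cell design (14485 genes) it recovered 56% and 97%.

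The members, the gene lists and the tests were chosen with earlier results of these data known. All members, and Ctsd, are named in every comparison. From each other list the rule names up to 3 genes per comparison, those called without overlap of the groups and with the largest log2 FC in size, and not all are printed. Other genes appear as counts of 5 or fewer, as markers or as neighbors on chromosome 9, and were named after their values were seen. DESeq2 1.42.0, limma-voom (limma 3.58.1), other size factors, no filter, other count columns, covariates and left-out samples served as alternatives. No pair of replicates was alike enough to be a single library (chi-square per gene at least 15.45).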

Additional observations from a re-analysis of the deposited data

Results flagged for a closer look

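The response to culture time was tested for a difference between the genotypes (edgeR, adjusted p below 0.05 and an absolute log2 FC above 1). The values below are those of the members past both thresholds and of the up to 3 genes of each list past both with the largest log2 FC in size, given as the log2 FC of 12 weeks against 10 days in Ctsd-/- cells minus that in Ctsd+/+ cells. Mmp2 was at 2.02, and Mmp11 passed only the first threshold. Of the other family genes, Mmp19 was at 5.02 and Mmp24 at -3.25. Among genes that handle MMPs, Lrp1 was at 5.49, Pcsk6 at -3.34 and Reck at 3.13. Among substrate genes, Col5a1 was at 15.39, Col1a1 at 9.98 and Nid1 at 8.20. Among transcription factors, Etv1 was at 3.08, Jun at 1.60 and Ets2 at -1.48. None of the 10 members had a tumor sample that stood outside its group of 4 by Dixon's test.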

How the results depend on the processing

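The calls of the genotype comparisons of cells changed least. Of the 10 members, 7 to 9 passed in 1% FCS (8 with all samples) and 6 in 1% FCS LT when each sample was left out in turn, 2 to 4 with time within Ctsd+/+ cells, 0 within Ctsd-/- cells, 0 to 1 for the change of the genotype difference, and 2 to 3 in tumors. At an adjusted p of 0.05, 0 members passed in tumors. Within Ctsd-/- cells, 1 member passed with DESeq2, limma-voom, the samples of LR-38862 alone or the 2 groups fitted apart, and 2 without the low-count filter. For the change of the genotype difference, 2 passed with limma-voom or no fold threshold, and 0 with reads of both strands.

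Some values of members changed sign, none of them past a threshold on both sides. In tumors, without the 2 tumors rich in muscle markers (chosen after the data were seen), Mmp2 was at -0.14, Mmp14 at -0.0095 and Timp2 at -0.0066. With the adipocyte covariate Mmp3 was at -0.61, Mmp13 at 0.44 and Timp3 at -0.94, and with the fibroblast covariate Mmp2 was at -0.13 and Timp3 at -0.41. In 1% FCS, Mmp2 counted on both strands was at 0.18. With LR-38862 alone, Mmp15 was at 0.049 in 1% FCS LT and at 0.45 within Ctsd-/- cells, and Timp2 at 0.068 within Ctsd+/+ cells. Within Ctsd-/- cells, Timp1 was at 0.076 with limma-voom and 0.00089 without the filter, and Mmp2 at -0.089 with both strands. The cause was not tested. Leaving out each sample in turn moved the tumor log2 FC of Mmp2 from -0.30 to 0.38, of Mmp14 from -0.19 to 0.27, of Timp2 from -0.25 to 0.26 and of Timp3 from -0.21 to 0.37, and that of Timp1 in 1% FCS LT from -0.80 to 0.24. Within Ctsd-/- cells the ranges were -0.15 to 0.44 (Mmp2), -0.15 to 1.11 (Mmp13), -0.26 to 0.14 (Mmp14), -0.90 to 0.36 (Mmp15), -0.30 to 0.18 (Timp1) and -1.47 to 2.79 (Timp3). Within Ctsd+/+ cells they were -0.42 to 0.10 (Timp2) and -0.30 to 0.53 (Timp3), and for the change of the genotype difference -0.27 to 1.57 (Mmp9) and -1.56 to 2.70 (Timp3). Of 978 member values under alternatives, 890 kept direction and call.

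Correlations of deviations between same-numbered samples ran from -0.30 to -0.0075 in tumors and from -0.29 to 0.36 in cells. Between the genotypes in 1% FCS they were 0.36, 0.10 and 0.30, with a mean of 0.25 against -0.13 for unlike numbers. In 1% FCS LT they were 0.070, 0.0018 and 0.12. Replicate 1 of both genotypes in 1% FCS carries LR-38797, and replicate 3 of both in 1% FCS LT carries LR-38863. The main fit does not pair samples by number. With the replicate number as a block, 3 members passed in tumors (Mmp15 added, log2 FC 0.44) and 8 in 1% FCS. Counting limits the low groups. Mmp2 had 5 to 40 reads per cell library, Mmp3, Mmp9 and Mmp13 had 1 to 35, 0 to 50 and 2 to 18 in Ctsd+/+ cells, and Mmp14 had 11 to 18 in Ctsd-/- cells.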
